A study of Mus musculus with 8 samples.

Results

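Matrix metalloproteinases (MMPs), ADAMs, ADAMTS proteases and their inhibitors, the TIMPs, were compared between G1 and G0 fibroblasts. They were taken as the array probe sets whose single platform gene symbol starts with Mmp, Adam, Adamts or Timp followed directly by a digit. The rule found 116 of 45037 probe sets, which stand for 65 of the 18193 genes that a single-symbol probe set measured. They comprise 29 probe sets of 18 Mmp genes, 46 of 28 Adam genes, 28 of 15 Adamts genes and 13 of 4 Timp genes. The rule leaves out 5 probe sets whose several symbols include a gene of these families.

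The cells were NIH3T3, an established line of mouse embryonic fibroblasts. All of them carried an mVenus fusion of the p27K- mutant and an mCherry fusion of the hCdt1(30/120) fragment. They had been deprived of serum and then returned to 10% serum for 5 h. The G1 group was 4 arrays of RNA from cells sorted as mVenus-negative and mCherry-positive, and the G0 group was 4 arrays from cells sorted as positive for both. P27 restrains cyclin-dependent kinases and accumulates in quiescence, and the Cdt1 fragment is degraded once S phase begins. The labels do not state whether replicates were separate cultures. The p-values therefore reflect the spread among these arrays, which may be technical.

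MMPs are zinc proteases that cut collagens and other matrix proteins, and they are made as inactive precursors. ADAMs are membrane-anchored relatives, many of which release growth factors and receptors from the cell surface, and ADAMTS proteases are secreted relatives that cut proteoglycans and trim procollagens. TIMPs bind the active sites of these enzymes. Fibroblasts make several members of each family, and several MMP genes are known targets of AP-1, a transcription factor that serum activates.

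Each value is a log2 signal from which the probe set's own median over the 8 arrays has been taken, so only differences between groups were measured, not levels. Whether a gene was expressed at all, and the fibroblast identity of the cells, could not be read from them. All 8 probe sets of a short list of cycling-cell markers lay higher in G1. Of these 6 passed as higher, against 0.373% of all probe sets tested. The list describes proliferation and does not mark G1 itself. The poly-A spike-ins, bacterial transcripts added before labelling, were missing on G1 replicate 4 and G0 replicate 3, whereas the labels assign replicate 4 of each group to the second labelling batch. The fit used the labelled batch. A fit with the batch shown by the spike-ins gives the same differences with other errors. Labelled batch 2 holds a single array per group, of which only the G0 one carried spike-ins, so within it the group and the presence of spike-ins cannot be told apart.

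No probe set of the 4 families passed the test. Of 116, 0 were higher and 0 lower in G1 at an adjusted p under 0.05 in limma, against 0.4% of all probe sets tested (0.373% higher and 0.0266% lower). The count was also 0 in either direction with the spike-in batch (0.788% of all probe sets). At an unadjusted p under 0.05 there were 5, or 4.31% of the 116, against 7.3% of all probe sets. All 5 lay lower in G1 and 0 higher (3.59% and 3.71% of all probe sets), with 2 probe sets of Mmp9 and 1 each of Mmp23, Mmp2 and Adam12. With the spike-in batch 11 were at that p (9 lower and 2 higher), or 9.48% of the 116 against 11.3% of all probe sets (6.11% lower and 5.15% higher). In 5 probe sets the 4 G1 values all lay below the 4 G0 values, 4.31% against 2.9% of all probe sets. In 0 they all lay above (3.16% of all).

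**Figure D1:**
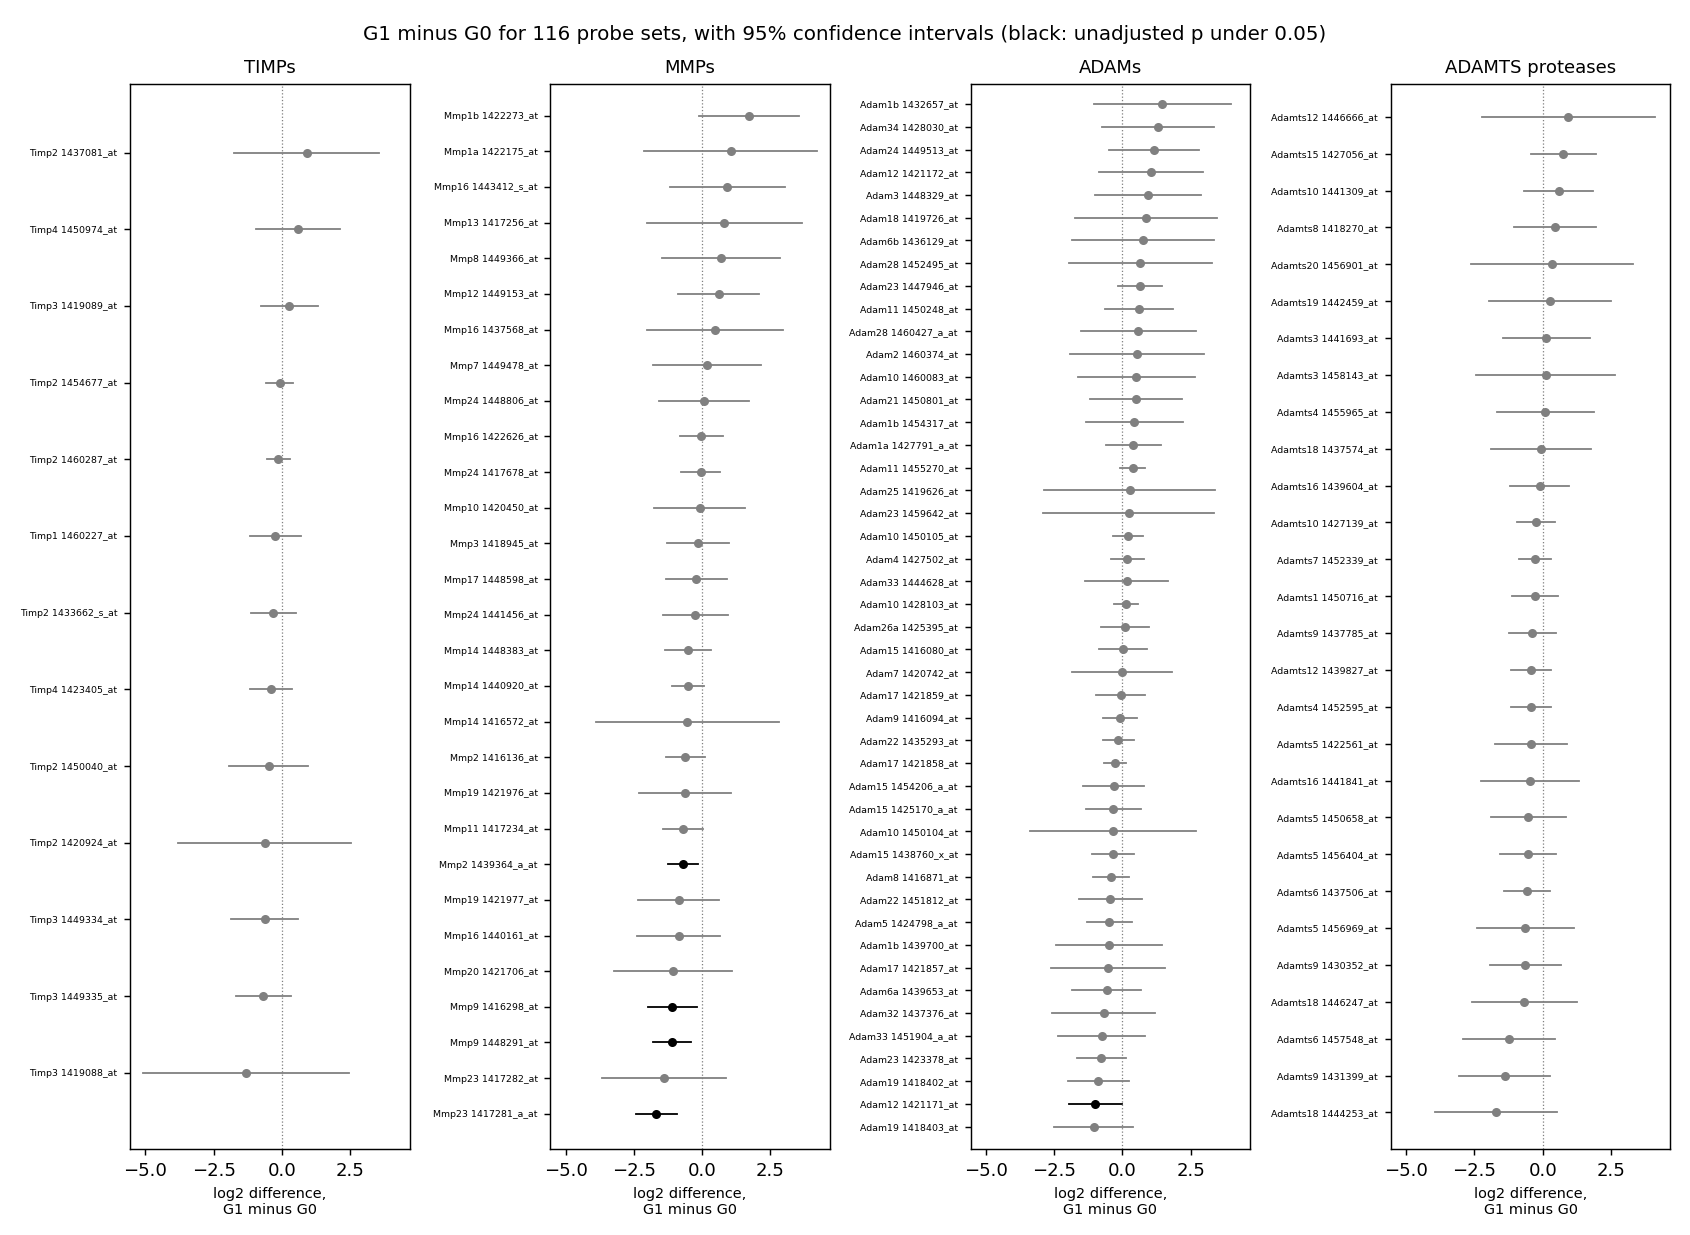
Log2 difference, G1 minus G0, of each of the 116 probe sets with its 95% confidence interval from limma, in 4 panels by family. Black marks the 5 probe sets at an unadjusted p under 0.05, all left of 0, and grey the others. Intervals that span several log2 units occur in every family.

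The family medians ran from -0.34 to 0.11 log2 units. The median log2 difference was -0.31 for the Timp probe sets, -0.25 for Mmp, 0.11 for Adam and -0.34 for Adamts, beside -0.06 for all probe sets tested. Below 0 lay 10 of 13 Timp, 20 of 29 Mmp, 21 of 46 Adam and 19 of 28 Adamts probe sets, against 55% of all. Within labelled batch 1 the medians were -0.49, -0.45, -0.24 and -0.40 in that order of families, against -0.11 for all probe sets. Within labelled batch 2 they had the opposite sign, at 0.17, 0.49, 0.69 and 0.13. The median of all probe sets changed sign as well, to 0.15. Within the 6 arrays that carried spike-ins they were -0.37, -0.47, -0.01 and -0.53, against -0.07 for all probe sets. Within the pair that did not, they were -0.27, -0.48, -0.15 and -0.15, against 0 for all probe sets. The median within-group SD was 0.99 over the 116, against 0.70 over all probe sets.

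Mmp23 had the lowest p of all 116 probe sets. It encodes a membrane-anchored MMP with a cysteine-rich array, and lies on chromosome 4. Probe set 1417281_a_at read -0.98, -0.51, -0.65 and -0.54 in G1, against 0.89, 1.85, 0.78 and 0.51 in G0 (replicates 1 to 4). The groups did not overlap, and 1.01 log2 units lay between the highest G1 and the lowest G0 value. The difference was -1.68 (SE 0.32, 95% confidence interval -2.43 to -0.92), a 3.20-fold lower value in G1. It did not pass in limma (adjusted p = 0.136, or 0.096 with the spike-in batch). It passed in a limma fit that kept only the less variable probe sets (adjusted p = 0.019, with 0.56% of the 22519 tested called lower). That filter selects on the within-group SD, which the test also uses, and 13.8% of the probe sets it kept were at an unadjusted p under 0.05, against 7.3% of all. Over the other limma fits, each left-out array included, the adjusted p ran from 0.074 to 0.490.

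The other Mmp23 probe set, 1417282_at, read -0.23, 0.23, -0.30 and -0.92 in G1, against 2.31, -1.94, 1.65 and 2.35 in G0. The groups overlapped through G0 replicate 2 alone. Its difference was -1.40 (95% confidence interval -3.68 to 0.89, limma adjusted p = 0.845). It was -2.43 without G0 replicate 2, and -0.77 without replicate 4 of either group.

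The gelatinases Mmp9 and Mmp2 cut denatured and basement membrane collagens. All 4 of their probe sets lay lower in G1, and none passed. Mmp9 on chromosome 2 read -0.11, -0.36, -0.94 and -0.55 in G1 on probe set 1448291_at, against 0.51, 1.26, 0.55 and 0.11 in G0. The groups did not overlap, with 0.22 log2 units between them. The difference was -1.10 (SE 0.29, limma adjusted p = 0.366, or 0.244 with the spike-in batch), 2.14-fold lower. Mmp9's other probe set, 1416298_at, read -0.46, 0.07, -0.75 and -1.74 in G1, against 0.52, 0.61, -0.07 and 0.40 in G0. It overlapped by G1 replicate 2 and G0 replicate 3 and gave almost the same difference, -1.09 (SE 0.38, limma adjusted p = 0.583). The lowest of the 4 G1 values came from replicate 4, which carried no spike-ins.

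Mmp2 on chromosome 8, the gelatinase that Mmp14 activates, differed by -0.70 on probe set 1439364_a_at (SE 0.24, limma adjusted p = 0.550), 1.63-fold lower. It read -0.16, -0.46, -0.16 and -0.37 in G1, against 0.96, 0.25, 0.29 and 0.16 in G0. The groups were separate, and G0 replicate 1 stood above the other G0 arrays. Probe set 1416136_at differed by -0.62 (SE 0.30, limma adjusted p = 0.754), with G1 values of 0.03, -0.62, -0.33 and -0.20, against G0 values of 1.06, 0.01, 0.29 and -0.01. Again G0 replicate 1 was the highest. Without that array the differences of the 2 probe sets were -0.53 and -0.38.

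Mmp11, stromelysin 3, which furin activates inside the cell, read -0.02, -0.76, -0.20 and -0.15 in G1, against 1.09, 0.02, 0.35 and 0.19 in G0. The groups were separate by only 0.038 log2 units. The difference was -0.70 (95% confidence interval -1.42 to 0.03, limma adjusted p = 0.703). Leukocytes also make Mmp9, but all cells here were sorted from the NIH3T3 fibroblast line. A list of leukocyte markers was set beside these genes as a description of transcripts, not of leukocyte content. Of its 11 probe sets 0 passed, 4 lay below 0, and their median difference was 0.08. At an unadjusted p under 0.05, 3 of the 11 were lower and 0 higher (27.3%, against 3.59% of all probe sets for lower), and 2 were separated lower (18.2% against 2.9%). Fibroblast markers had a median difference of -0.51 over 20 probe sets, with 15 below 0 (75% against 55% of all) and 0 past the test. At that p 3 were lower and 0 higher (8 lower with the spike-in batch, 40% against 6.11%), and 4 were separated lower (20% against 2.9%). The relation of either list to the MMP values was not tested.

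**Figure D2:**
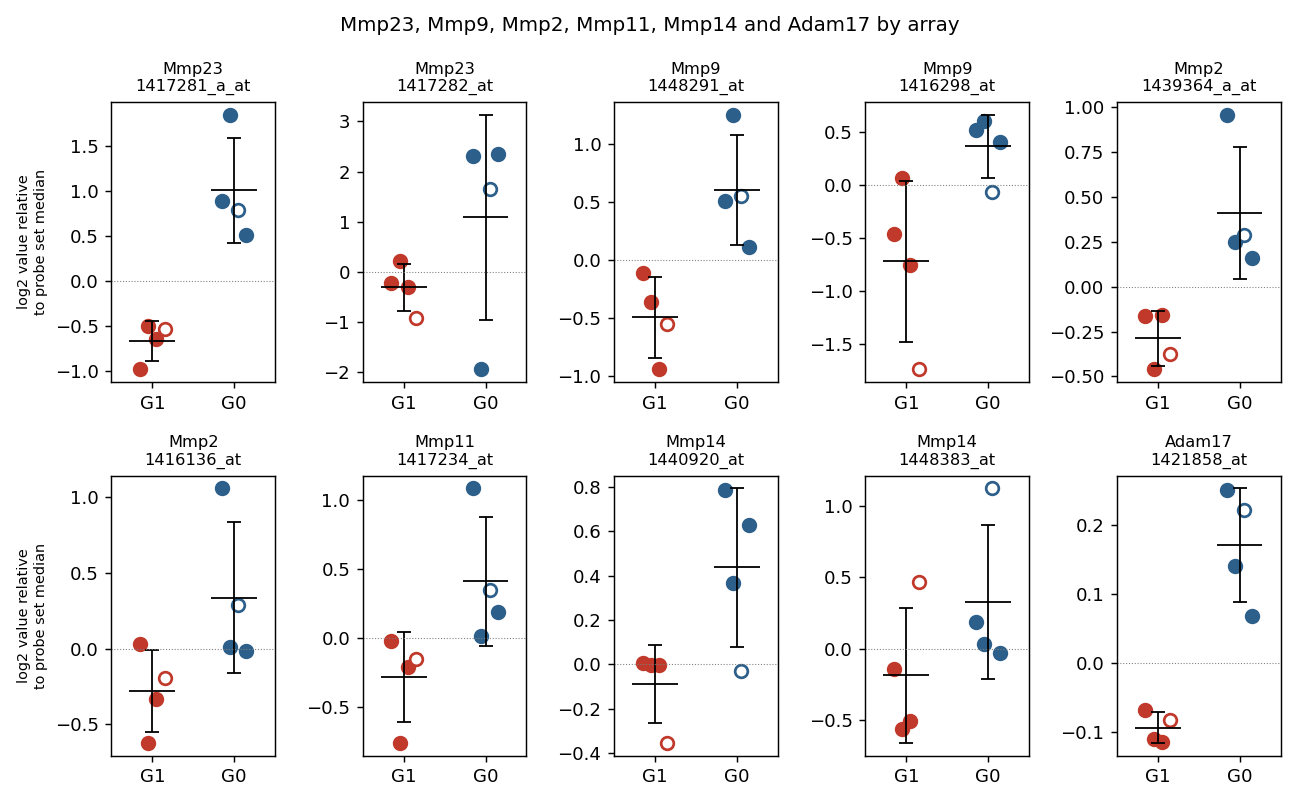
Log2 value relative to the probe set's median on each array (vertical axis) for G1 (red) and G0 (blue), with the mean and SD in black and open circles for the arrays without spike-ins. For Mmp23 1417281_a_at the 4 G1 values lie between -0.98 and -0.51 and the 4 G0 values between 0.51 and 1.85, while Adam17 1421858_at separates over a much smaller range; each panel has its own scale.

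Membrane-type MMPs act at the cell surface. Mmp14, which cuts fibrillar collagen and activates pro-Mmp2, differed by nearly the same amount on its 3 probe sets, from -0.54 to -0.51. Probe set 1440920_at read 0.00, -0.01, 0.00 and -0.35 in G1, against 0.78, 0.36, -0.03 and 0.63 in G0 (difference -0.53, SE 0.25, limma adjusted p = 0.737, or 0.251 with the spike-in batch). Probe set 1448383_at read -0.14, -0.56, -0.51 and 0.46 in G1, against 0.19, 0.03, 1.12 and -0.03 in G0 (difference -0.51, SE 0.36, limma adjusted p = 0.846, or 0.278). In the second of these the highest value of each group came from the array without spike-ins. With the spike-in batch in the fit, the 95% confidence intervals were -0.87 to -0.18 and -0.87 to -0.15. The third, 1416572_at, read 2.78 on G1 replicate 4 and 3.60 on G0 replicate 3, and between -0.52 and 0.44 on the other 6 arrays.

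The remaining membrane-type genes did not pass either. Of Mmp16, 2 of 4 probe sets lay below 0, and the differences ran from -0.86 to 0.92. Mmp17, which is anchored by a lipid, differed by -0.21 (95% confidence interval -1.32 to 0.89). The 3 probe sets of Mmp24, a neural membrane-type MMP, differed by -0.25 to 0.07. Over these 11 probe sets the lowest limma adjusted p was 0.737.

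The MMP gene cluster of chromosome 9 holds the collagenase genes Mmp1a, Mmp1b, Mmp8 and Mmp13, the stromelysin genes Mmp3 and Mmp10, and Mmp7 (matrilysin), Mmp12 (macrophage elastase) and Mmp20 (enamelysin). Its promoters are shown because AP-1 elements in such promoters are the textbook route from serum to collagenase and stromelysin genes. The element searched was TGANTCA, which reads the same on both strands, in the 250 bases before each start site of RefSeq genes (build GRCm38.p6). Promoters were at hand for 37 of the 65 genes. The element was present in 8 of 9 cluster genes, the exception being Mmp8, against 7.82% of all 27025 genes with a promoter. It was present in 0 of 4 other Mmp genes, 2 of 14 Adam genes (Adam19 and Adam25), 0 of 6 Adamts genes and 0 of 4 Timp genes. N stands for any base, so these counts take in more than the AP-1 consensus, TGAGTCA or TGACTCA. The match read TGAATCA in Mmp20 and Adam25, and was of the consensus in the other matched genes of these families. Shares for the consensus alone were not counted. A match describes the letters and not binding, which these arrays do not measure. The 60 bases around the match in each of the 8 cluster genes follow, 5′ to 3′ on the gene's strand, with the element in capitals.
Mmp13: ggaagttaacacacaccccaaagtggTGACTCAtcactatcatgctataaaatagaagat
Mmp12: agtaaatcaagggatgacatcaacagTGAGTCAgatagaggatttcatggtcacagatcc
Mmp3: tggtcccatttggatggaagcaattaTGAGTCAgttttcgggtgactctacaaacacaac
Mmp7: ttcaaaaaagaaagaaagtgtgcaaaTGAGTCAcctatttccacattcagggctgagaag
Mmp10: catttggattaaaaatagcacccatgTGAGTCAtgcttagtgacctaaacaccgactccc
Mmp1a: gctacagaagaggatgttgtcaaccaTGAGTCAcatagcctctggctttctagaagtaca
Mmp1b: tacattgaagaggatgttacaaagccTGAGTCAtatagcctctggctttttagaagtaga
Mmp20: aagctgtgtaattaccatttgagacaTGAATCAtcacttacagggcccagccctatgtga

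The distance from the element to the start site grows down that order, from 28 bases in Mmp13 and 37 in Mmp12 to 86 in Mmp1b and 88 in Mmp20. The windows of Mmp13 and Mmp3 lie at chr9:7272453-7272512 and chr9:7445750-7445809 on the plus strand, and that of Mmp1b at chr9:7388086-7388145 on the minus strand. Mmp1a and Mmp1b, which are near copies of each other, share most letters around the element, and probe sets of such copies may read both.

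None of the 9 cluster genes passed, and their differences had both signs, with 3 below 0 and a median of 0.61. The 4 collagenases all lay above 0, from 0.67 to 1.70. Mmp1b had the largest difference, 1.70 (95% confidence interval -0.13 to 3.53, limma adjusted p = 0.720, or 0.427 with the spike-in batch). It read 0.44, -0.01, 0.78 and 0.59 in G1, against -1.45, 0.01, -3.52 and -0.04 in G0. The groups overlapped at G1 replicate 2 and G0 replicate 2, and G0 replicate 3 was far lower than the other arrays. Without it the difference was 0.98, and without any other single array it was 1.51 to 2.22. Mmp13 read -0.29, 1.98, -2.03 and 0.95 in G1, against 0.29, 1.22, -3.41 and -0.71 in G0, which overlap throughout (difference 0.81, 95% confidence interval -2.03 to 3.64). Mmp3 differed by -0.17 (-1.30 to 0.97) and Mmp10 by -0.09 (-1.75 to 1.57). All 9 had a within-group SD over 1, with a median of 1.41, against 0.66 for the 20 other Mmp probe sets. The confidence intervals of Mmp10 and Mmp13 span changes of more than 2-fold in both directions.

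TIMPs were measured by 13 probe sets, and none reached an unadjusted p under 0.05 with the labelled batch (lowest limma adjusted p = 0.824). Timp1, the TIMP that growth factors induce in fibroblasts, read -0.34, 0.30, 0.14 and -1.07 in G1, against -0.14, 0.58, -0.70 and 0.22 in G0. The lowest value of each group was on the array without spike-ins. The difference was -0.23 (95% confidence interval -1.18 to 0.71). Timp2, which takes part in the activation of pro-Mmp2 by Mmp14, had 6 probe sets with differences from -0.62 to 0.91, and 5 of them lay below 0. The least variable, 1460287_at, read -0.01, -0.04, -0.08 and 0.06 in G1, against 0.01, 0.25, 0.18 and -0.02 in G0. Its difference was -0.13 with a 95% confidence interval of -0.55 to 0.30, the narrowest bound on any TIMP.

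Other Timp2 probe sets scattered more. Probe set 1420924_at read -0.29, -1.25, -0.28 and 3.31 in G1, against 0.40, -0.27, 3.58 and 0.27 in G0. The only high values were those of the arrays without spike-ins, 1 in each group. The same held for 1450040_at, at 1.70 on G1 replicate 4 and 1.72 on G0 replicate 3 (difference -0.48, limma adjusted p = 0.946, or 0.438 with the spike-in batch).

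Timp3, which binds the extracellular matrix and also inhibits Adam17 and aggrecanases, differed by -1.32, -0.68, -0.63 and 0.28 on its 4 probe sets, with limma adjusted p from 0.824 to 0.962. The first of these is the least certain, since G1 values of -3.34, 0.39, 0.10 and -3.77 stood against G0 values of 0.15, -1.49, -0.04 and 0.04. Timp4, a TIMP of heart and fat, differed by -0.39 and 0.57 on 2 probe sets.

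**Figure D3:**
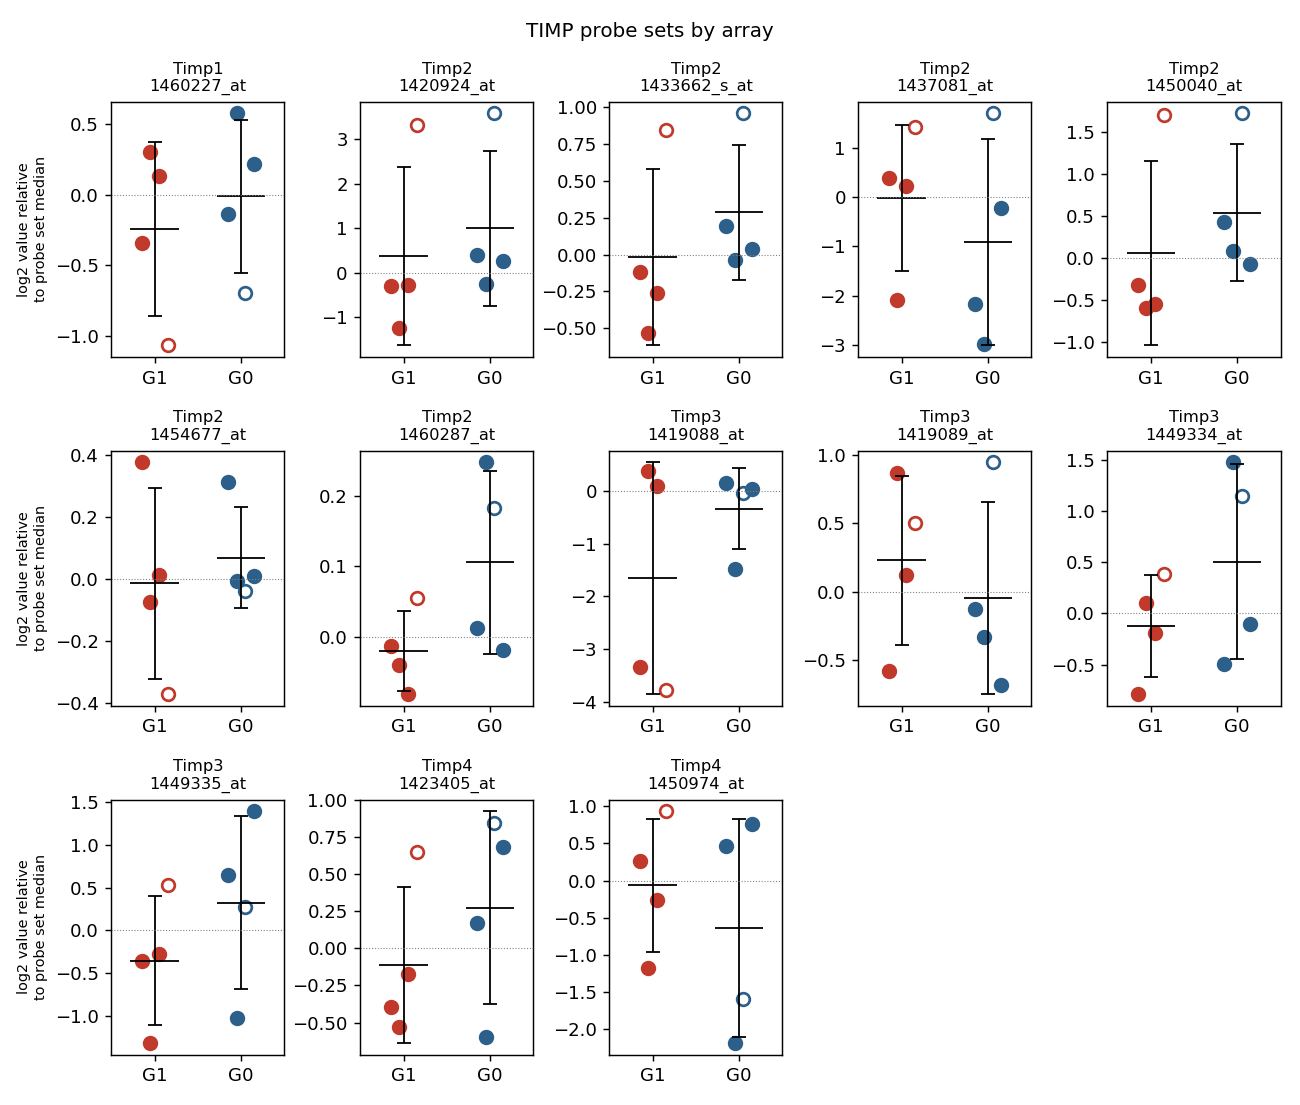
Log2 value relative to the probe set's median on each array (vertical axis, own scale per panel) for the 13 Timp probe sets in G1 (red) and G0 (blue), with the mean and SD in black. Open circles mark the arrays without spike-ins, which stand high in both groups on Timp2 1420924_at and 1450040_at and not on Timp2 1454677_at or 1460287_at.

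Adam17 and Adam10 are the main sheddases: Adam17 releases TNF and ligands of the EGF receptor, and Adam10 cuts Notch receptors and cadherins. None of their probe sets passed. Adam17's least variable probe set, 1421858_at, read -0.07, -0.11, -0.11 and -0.08 in G1, against 0.25, 0.14, 0.22 and 0.07 in G0. The groups were separate, but the difference was only -0.26 (SE 0.17, limma adjusted p = 0.830), 1.20-fold. Its within-group SD of 0.060 was the smallest of all 116, and limma's SE is drawn toward that of other probe sets. The other Adam17 probe sets differed by -0.53 and -0.07. Adam10 on 1428103_at read 0.04, 0.28, 0.11 and -0.14 in G1, against -0.09, -0.02, -0.07 and 0.02 in G0 (difference 0.11, 95% confidence interval -0.33 to 0.55). Adam10's 4 probe sets ran from -0.34 to 0.51, and 3 lay above 0.

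The meltrins Adam12, Adam19 and Adam9 are sheddases found in muscle, bone and connective tissue. Adam12 on 1421171_at was the only ADAM probe set at an unadjusted p under 0.05 with the labelled batch. It read -0.31, -0.64, 0.03 and -2.28 in G1, against 0.06, 0.53, 0.21 and -0.03 in G0, for a difference of -0.997 (SE 0.41, limma adjusted p = 0.677). G1 replicate 4, an array without spike-ins, was far below the others. Without replicate 4 of either group the difference was -0.58, and Adam12's second probe set lay in the other direction, at 1.04. Adam19 lay lower on both probe sets, by -0.88 and -1.06 (limma adjusted p = 0.782 and 0.805), and the first had an adjusted p of 0.208 with the spike-in batch. Without replicate 4 of either group the differences were -0.48 and -0.43. The first read -0.52, 0.00, 0.00 and -1.17 in G1, against 0.54, 1.11, -0.74 and 0.91 in G0. In each group the lowest value was that of the array without spike-ins. Adam9 differed by -0.08 (95% confidence interval -0.70 to 0.54).

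None of the other sheddases passed. Adam15 differed by -0.34 to 0.02 on 4 probe sets, and Adam8, a sheddase of leukocytes and osteoclasts, by -0.43 (95% confidence interval -1.09 to 0.22). Adam33 differed by 0.15 and -0.76. Over the 19 probe sets of 8 sheddase genes the median was -0.33, with 13 below 0.

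Adam11, Adam22 and Adam23 lack the zinc-binding motif and act as adhesion receptors in nerve tissue. Their 7 probe sets had a median difference of 0.23. Adam11 lay above 0 on both, and on 1455270_at it read 0.27, -0.03, 0.22 and 0.38 in G1, against -0.23, -0.42, 0.02 and -0.02 in G0 (difference 0.37, limma adjusted p = 0.776, or 0.428 with the spike-in batch). Adam22 lay below 0 on both, at -0.15 and -0.44. Adam23's probe sets differed by -0.77, 0.65 and 0.23. A further 17 Adam genes, most of them known from testis and sperm (Adam2 and Adam3 among them) and 1 from lymphocytes (Adam28), had 20 probe sets. Their differences ran from -0.69 to 1.46, with 15 above 0 and a lowest limma adjusted p of 0.818. Their median within-group SD of 1.28 exceeded the 0.71 of the sheddases.

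ADAMTS proteases gave 0 probe sets at an unadjusted p under 0.05, with the labelled or the spike-in batch. The proteoglycan-cleaving members, which cut aggrecan and versican, had a median difference of -0.44 over 13 probe sets, and 9 lay below 0. Adamts5, an aggrecanase, lay below 0 on all 4 probe sets, from -0.64 to -0.44. On 1456404_at it read 0.31, -0.88, -0.48 and -0.04 in G1, against 1.20, -0.52, 0.37 and 0.04 in G0 (95% confidence interval -1.57 to 0.48, limma adjusted p = 0.877). The highest value came from replicate 1 and the lowest from replicate 2 in each group, so the groups overlapped.

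Adamts9 lay below 0 on all 3 probe sets, from -1.40 to -0.39. On 1431399_at it read -0.36, -1.48, -2.94 and 0.45 in G1, against 0.48, 0.04, 0.80 and -0.04 in G0 (limma adjusted p = 0.762, the lowest of the family). Adamts4, an aggrecanase that inflammatory signals induce, differed by -0.44 and 0.09. Adamts1, which cuts versican, differed by -0.29 (95% confidence interval -1.14 to 0.57). Adamts8, Adamts15 and Adamts20 differed by 0.46, 0.75 and 0.33.

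Of the procollagen N-proteinases only Adamts3 was among the probe sets, at 0.13 and 0.10. Adamts7 and Adamts12, which cut cartilage oligomeric matrix protein, differed by -0.28 for Adamts7 and by -0.43 and 0.94 for Adamts12. Adamts6 lay below 0 on both probe sets (-0.57 and -1.24) and Adamts18 on all 3 (-1.70 to -0.06). The 95% confidence interval of the -1.70 was -3.94 to 0.53. Adamts10, Adamts16 and Adamts19 ran from -0.48 to 0.58 over 5 probe sets, and Mmp19 differed by -0.63 and -0.86. Over the probe sets of all these genes together, the limma adjusted p ran from 0.862 to 0.988.

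Where a gene had several probe sets, their signs were compared. Of 30 such genes 13 lay below 0 on all their probe sets, 43.3% against 29.9% of all 9010 genes with several probe sets. They include Mmp2, Mmp9, Mmp14, Mmp19, Mmp23, Adam17, Adam19, Adamts5 and Adamts9. Another 3 lay above 0 on all, 10% against 20% of the 9010 genes with several probe sets, and 14 were mixed. Probe sets of a gene share the RNA of each array and are not replicates, so these counts are a description.

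Several probe sets differed more between the 2 arrays without spike-ins and the 6 with them than between G1 and G0. In the fit with the spike-in batch, the batch term itself passed for 10 of the 116 in limma, 9 of them higher without spike-ins and 1 lower. Of all probe sets 4.75% passed that test, 3.94% higher and 0.808% lower. Adam10 on 1450104_at was 3.75 log2 units higher without spike-ins than with them (limma adjusted p = 0.027), Timp2 on 1420924_at 3.68 (adjusted p = 0.025) and Mmp14 on 1416572_at 3.27 (adjusted p = 0.050). Adam17 on 1421857_at was 2.36 units higher and Mmp7 2.32. Adam19 on 1418402_at was the only one lower, by -1.30 log2 units. Timp2 also passed on 1450040_at (1.89, limma adjusted p = 0.017) and 1433662_s_at (1.02, adjusted p = 0.027). So did Mmp14 on 1448383_at (0.96, adjusted p = 0.033) and Adam17 on 1421859_at (0.99, adjusted p = 0.045). The remaining probe sets of these genes ranged widely on this contrast and did not pass. Timp2 differed by 0.10 on 1460287_at and by 2.71 on 1437081_at (limma adjusted p = 0.737 and 0.175), and Adam19 on 1418403_at by -1.89 (adjusted p = 0.226). For Mmp23 1417281_a_at the same contrast was near 0, at -0.06. This term was added after the data were seen, and rests on 2 arrays against 6.

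**Figure D4:**
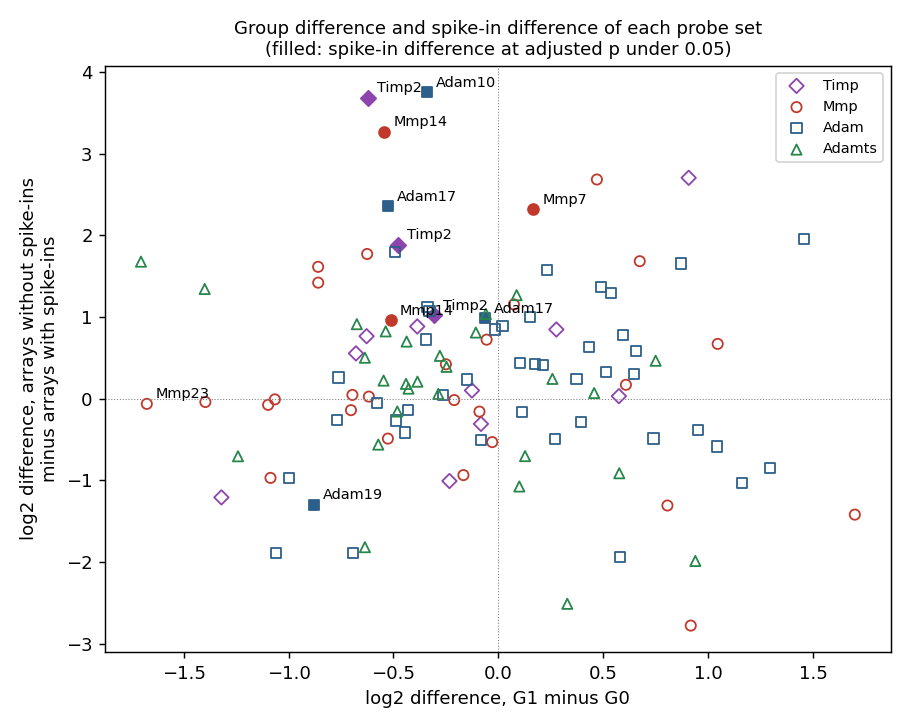
Each of the 116 probe sets by its log2 difference between G1 and G0 (horizontal axis) and by its log2 difference between the arrays without and with spike-ins (vertical axis), with a symbol per family. The 10 filled points passed the test of the vertical difference, up to 3.75 log2 units, and lie within 1 unit of 0 on the horizontal axis.

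Other genes of pericellular proteolysis were read from a list of 70, of which 66 were measured by 138 probe sets. It holds the plasminogen system, proprotein convertases, TspanC8 tetraspanins that carry Adam10, iRhoms that carry Adam17, shed ligands, proteoglycan substrates and cathepsins. None passed in limma (0 higher, 0 lower). At an unadjusted p under 0.05 there were 3 higher and 4 lower, 5.07% of the list against 7.3% of all probe sets. With the spike-in batch there were 4 higher and 14 lower, 13% against 11.3% (5.15% higher and 6.11% lower of all probe sets). Those named next are the probe sets at that p with the labelled batch, and their values are a description. Each value is that of the selected probe set, and any other probe sets of the gene are not given. Thbs2, a matrix protein that promotes uptake of Mmp2, differed by -0.96 (adjusted p = 0.630), and Pcolce2, an enhancer of procollagen C-proteinase, by 1.19 (adjusted p = 0.656). The proteoglycans Bcan and Ncan are substrates of ADAMTS proteases in brain. Bcan differed by 1.55, and 2 probe sets of Ncan by 2.26 and -1.82, opposite in sign. Adamtsl3, an ADAMTS-like protein without protease domain, differed by -1.79, and the tetraspanin Tspan10 by -1.41 (adjusted p = 0.532 and 0.644). The list's median was -0.15, beside -0.06 for all probe sets.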

How the data were processed

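The deposited table holds log2 values for the 8 arrays, and the submitters' processing notes name MAS5. As deposited, each probe set is centred on its median over the 8 arrays; the sources used here do not give the step that took logs and centred. Nor do they give the log base, which was taken as 2 from the range of the values. Folds rest on that reading. No level filter was possible. Tests omitted 64 control probe sets. Of the rest, 34945 had 1 symbol in the platform annotation, 932 several and 9160 none, and symbols were checked through the Entrez identifier. No probe set of the 4 families had a tied lowest value, the mark of a floor.

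G1 minus G0 was fitted in limma 3.58.1 (R 4.3.3; lmFit, eBayes with trend), two-sided, on all 8 arrays with the labelled batch as covariate (kit protocol revision 3 for replicate 4, revision 8 otherwise, per the labels' protocols). Benjamini-Hochberg adjustment ran over 45037 probe sets, with a threshold of 0.05. The fit was tested on simulated data, with changes planted only in less variable probe sets and larger than the difference of any member. That test therefore does not give the power for these families. Genes were named for a role list, for separation between groups, or for 1 of the 4 lowest p of their family (all TIMPs). Mmp7, Mmp12, Mmp19, Mmp20, Adam2, Adam3, Adam25, Adam28, Adamts10, Adamts16 and Adamts19 fall outside that rule and were chosen after their values were seen. The members and lists were chosen with earlier results of these data known. The number of arrays limits the precision. Same-numbered arrays did not deviate together (correlations 0.07, 0.11, -0.14 and -0.14), so no pairs were used.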

Additional observations from a re-analysis of the deposited data

Results flagged for a closer look

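In 20 of the 172 groups of 4 arrays behind the named probe sets, 1 array lay far from the other 3 (Dixon's criterion for 4 values). Chance gives about 1 group in 20, against 11.6% here, and probe sets of a gene are not independent. G1 replicate 4, which carried no spike-ins, was that array 7 times: Adam17 read 2.21 on 1421857_at and 1.02 on 1421859_at, Mmp14 2.78 on 1416572_at and -0.35 on 1440920_at, Mmp16 -2.20, Mmp24 1.07 and Timp2 1.70. G0 replicate 3, also without spike-ins, was it 3 times, for Mmp14 (3.60), Adam15 (1.05) and Adamts6 (-0.25).

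G1 replicate 2 was it 4 times, each time low: Adam23 read -3.48, Adam33 -2.59, Mmp1a -3.72 and Mmp24 -2.17. G0 replicate 1 was it 3 times, each time high, for Mmp2 (0.96), Adamts12 (0.76) and Timp2 (0.31). G0 replicate 2 was it 3 times, for Adam10 (2.10), Mmp23 on 1417282_at (-1.94) and Timp3 (-1.49).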

How the results depend on the processing

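No member passed as higher in G1 under any setting tried, and none as lower except in the fit on quieter probe sets, which called 1 of 42, Mmp23 1417281_a_at (adjusted p = 0.019). That fit tested 22519 probe sets, and all its calls numbered 595, against 180 in the fit reported. Over all probe sets, limma called 269 without a batch term, 355 with the spike-in batch, 44 on the 6 arrays with spike-ins, 0 in labelled batch 1 alone and 107 of 18193 for gene means. The other settings on all 8 arrays, apart from the replicate block, gave 132 to 213. With each array left out it called 46 without G0 replicate 1, 122 without G0 replicate 3 and 0 without any other, with 4 to 9 members at an unadjusted p under 0.05. Where replicate 4 of a group is left out, the covariate absorbs the other array of labelled batch 2. With the spike-in batch and an array left out, a setting added after the data were seen, it called 0 members and 0 to 237 probe sets. With the replicate number as a block, 0 members and 0 of all probe sets passed in limma, with 7 members at an unadjusted p under 0.05 and a lowest member adjusted p of 0.255. The numbers did not pair the arrays.

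The Timp, Mmp and Adamts medians stayed below 0 under all settings for which they were computed, and their size moved. They were not computed for the spike-in batch with an array left out. Within labelled batch 2, which holds a single array per group and was not fitted alone, they were above 0. With an array left out the Timp median ran from -0.49 (without replicate 4 of either group) to -0.10 (without G0 replicate 3), and that of Mmp from -0.45 to -0.15 (without G1 replicate 2). For gene means they were -0.18 and -0.13, and that of Adamts -0.17. The Adam median changed sign. It was -0.011 on the arrays with spike-ins, -0.074 in quieter probe sets, -0.24 in labelled batch 1 alone and -0.24 to 0.20 with an array left out. The Mmp median was -0.66 in quieter probe sets, where fewer probe sets were tested. For the changes below the cause was not tested, and none of these probe sets had passed. With array weights Mmp3 was at 0.14 and Mmp16 1422626_at at 0.047, and with quantile normalization Mmp16 1422626_at was at 0.023. On the arrays with spike-ins the sign changed for Mmp3 (0.68), Mmp13 (-0.38), Mmp16 1422626_at (0.11), Timp2 1454677_at (0.0011), Timp4 1450974_at (-0.074), Adamts4 1455965_at (-0.12) and Adamts9 1437785_at (0.049).

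In labelled batch 1 alone it changed for Mmp3 (0.44), Mmp16 1422626_at (0.21) and 1437568_at (-0.45), Mmp24 1448806_at (-0.23), Timp1 (0.12), Timp2 1454677_at (0.016) and Timp3 1419089_at (-0.027). It also changed for Adam9 (0.14), Adam10 1460083_at (-0.011), Adam15 1416080_at (-0.36), Adam23 1459642_at (-0.46), Adam33 1444628_at (-0.19), Adamts4 1455965_at (-0.26) and Adamts5 1456969_at (0.17). The mean of a gene's probe sets had the sign opposite to 1 or more of them for Mmp16 (0.125), Mmp24 (-0.077), Timp2 (-0.12), Timp3 (-0.59), Timp4 (0.094) and Adam10 (0.12). The same held for Adam12 (0.022), Adam15 (-0.25), Adam23 (0.037), Adam33 (-0.31), Adamts4 (-0.17) and Adamts12 (0.26).

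Of the 86 named probe sets, 32 changed sign when an array was left out. Their ranges over the left-out arrays were as follows. Among MMPs these were Mmp10 -0.61 to 0.56, Mmp13 -0.12 to 1.53, Mmp14 1416572_at -1.65 to 0.45, Mmp16 1422626_at -0.27 to 0.21, Mmp16 1437568_at -0.45 to 1.29 and Mmp17 -0.48 to 0.23. Further MMPs were Mmp24 1417678_at -0.39 to 0.094, Mmp24 1441456_at -0.60 to 0.16, Mmp24 1448806_at -0.23 to 0.71 and Mmp3 -0.40 to 0.44. Among TIMPs they were Timp1 -0.51 to 0.12, Timp2 1420924_at -1.85 to 0.42, Timp2 1454677_at -0.20 to 0.016 and Timp3 1419089_at -0.027 to 0.61. Among ADAMs they were Adam10 1450104_at -1.66 to 0.73, Adam10 1460083_at -0.011 to 1.15, Adam15 1416080_at -0.36 to 0.32, Adam15 1454206_a_at -0.66 to 0.057 and Adam17 1421857_at -1.42 to 0.12. Further ADAMs were Adam17 1421859_at -0.45 to 0.21, Adam23 1459642_at -0.46 to 1.19, Adam33 1444628_at -0.35 to 0.59 and Adam9 -0.20 to 0.14. Among ADAMTS proteases they were Adamts12 1446666_at -0.026 to 2.17, Adamts18 1437574_at -0.65 to 0.42, Adamts20 -0.43 to 1.76, Adamts3 1441693_at -0.42 to 0.62 and Adamts3 1458143_at -0.89 to 1.08. Further ADAMTS proteases were Adamts4 1455965_at -0.27 to 0.84, Adamts5 1422561_at -0.77 to 0.015, Adamts5 1456969_at -1.22 to 0.17 and Adamts8 -0.14 to 0.95.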
